A study of Mus musculus with 10 samples.

Results

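MECOM and the PRDM proteins are a family of zinc finger regulators of transcription, and the genes described here are 9 of them, Mecom, Prdm1, Prdm2, Prdm4, Prdm6, Prdm10, Prdm14, Prdm15 and Prdm16, chosen by gene symbol out of the 55487 genes counted. All 9 were found in the authors' matrix of 15686 genes and all 9 passed the filter on low counts. The cells came from HM-1, a mouse embryonic stem (ES) cell line, which was differentiated towards blood in serum. Samples were ES cells, FLK1+ hemangioblast (HB) cells from 3-day embryoid bodies, and 3 populations sorted from the blast culture of HB cells, namely hemogenic endothelium 1 (HE1, KIT+ TIE2+ CD41-), hemogenic endothelium 2 (HE2, KIT+ TIE2+ CD41+) and hematopoietic progenitors (HP, KIT+ TIE2- CD41+). Nuclear RNA was sequenced from 2 libraries per stage, 10 in all, with no genetic change or drug named in their labels. The study describes the libraries of a stage as biologically independent replicates, and the labels number them without naming the cultures.

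Most PRDM proteins carry a PR domain, which is related to the SET domain of histone methyltransferases, followed by zinc fingers that bind DNA. A few members methylate histones themselves, and others recruit enzymes and corepressors. MECOM, also known as EVI1 or MDS1-EVI1, is required by blood stem cells and is expressed in endothelium, and PRDM16 is its closest relative. PRDM14 and PRDM1 (BLIMP1) are known from primordial germ cells, PRDM14 also from the maintenance of pluripotency and PRDM1 from the differentiation of plasma cells, while PRDM6 is known as a repressor in smooth muscle.

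Promoter windows from RefSeq (GRCm38.p6, 250 bases before to 50 after a start) existed for 6 of the 9 members, in 10 windows. Mecom and Prdm16 are shown because they share a run of sequence at their start, while Mecom rose and Prdm16 fell from ES to HB, as described further on. The capitals mark the longest run of letters that both windows hold, 24 bases, against at most 10 bases for any other of the 41 pairs of windows of different members. The Mecom window lies at chr3:30509710-30510009 and the Prdm16 window at chr4:154636824-154637123, both on the minus strand, and each is printed 5′ to 3′.
Mecom: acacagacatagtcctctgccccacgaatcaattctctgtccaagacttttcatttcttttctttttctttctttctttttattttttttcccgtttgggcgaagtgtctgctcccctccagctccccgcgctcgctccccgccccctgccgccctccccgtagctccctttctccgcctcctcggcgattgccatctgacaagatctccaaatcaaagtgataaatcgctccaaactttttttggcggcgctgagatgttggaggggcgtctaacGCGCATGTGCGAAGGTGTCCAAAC
Prdm16: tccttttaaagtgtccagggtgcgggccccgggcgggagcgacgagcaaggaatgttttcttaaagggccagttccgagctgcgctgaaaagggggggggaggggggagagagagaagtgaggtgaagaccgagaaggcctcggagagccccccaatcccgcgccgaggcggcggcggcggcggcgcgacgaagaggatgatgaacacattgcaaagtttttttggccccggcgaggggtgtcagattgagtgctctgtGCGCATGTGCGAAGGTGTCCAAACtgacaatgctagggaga
The run begins at base 277 of the Mecom window and at base 260 of the Prdm16 window, which is within the bases after the start in both. Of all 32851 windows in the table, 2 hold it, and those are the ones printed. In Mecom it reaches the last base of the window, so its full length was not measured. Mecom has a second RefSeq window at chr3:30013155-30013454, and because counts were made per gene, RNA from both starts was not separated. Prdm2, Prdm6 and Prdm14 had no window.

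Short motifs of blood regulators were searched on both strands of the windows. For GATA factors, the motif TGATAA was in the Mecom window printed above and in no other window of a member, and 9.05% of all windows hold it. Their other motif, AGATAA, was not among the members' windows (11.2% of all windows), and the AP-1 motif TGACTCA was not either (5.2%). The RUNX motif TGTGGTT was in 1 window of Prdm10 (5.27% of all windows), and the ETS motif CCGGAAG was in 1 window each of Prdm4 and Prdm15 (8.86%). Over all windows the median was 7 CpG. Among the members of steady level, the windows of Prdm4 held 32 and 40 CpG, those of Prdm15 held 23 and 34, and those of Prdm10 held 12 and 4. Among those that varied, the windows of Mecom held 19 (printed above) and 9 CpG, that of Prdm16 held 24 and that of Prdm1 held 20.

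Libraries held between 24920434 and 58782055 counts, and levels are given as CPM, a gene's counts scaled to a common library total, after TMM scaling of library sizes. A level at 3 counts, taken as the floor, is 0.051 to 0.12 CPM and covers counting error only. Stage markers followed the labels: the summed level of 4 ES markers was 1579 to 1649 CPM in ES and 1.27 to 91.5 CPM in the other libraries, and the stage mean of 4 summed endothelial markers was highest in HE1. In HE1 replicate 2, ES markers summed to 57.7 CPM against 5.59 CPM in replicate 1, and the cardiac gene Tnnt2 was at 74.2 against 16.0 CPM, while the other cardiac markers, Nkx2-5 and Myl7, were at no more than 4.33 CPM in either library. The HE2 libraries also differed, with 1714 and 1004 CPM of endothelial markers in replicates 1 and 2. In these sorted populations, fewer cells of a type and less RNA per cell cannot be told apart.

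The members fell into 2 groups by the ratio of their highest to their lowest stage mean. Mecom, Prdm1, Prdm6, Prdm14 and Prdm16 varied by between 13.2-fold and 2610-fold, and Prdm2, Prdm4, Prdm10 and Prdm15 by between 1.25-fold and 1.82-fold. No member lay between these ranges, so that a limit of 2-fold and one of 4-fold gave the same groups. Of all 22596 genes tested, 30.4% had a ratio under 2. In edgeR's quasi-likelihood test over all stages, a gene was called at an adjusted p under 0.05 with fitted stage means at least 2-fold apart, and 5 of the 9 members were called, the same 5 as above. Since 54.7% of all tested genes were called by this rule, the share of the members is near the background.

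**Figure D1:**
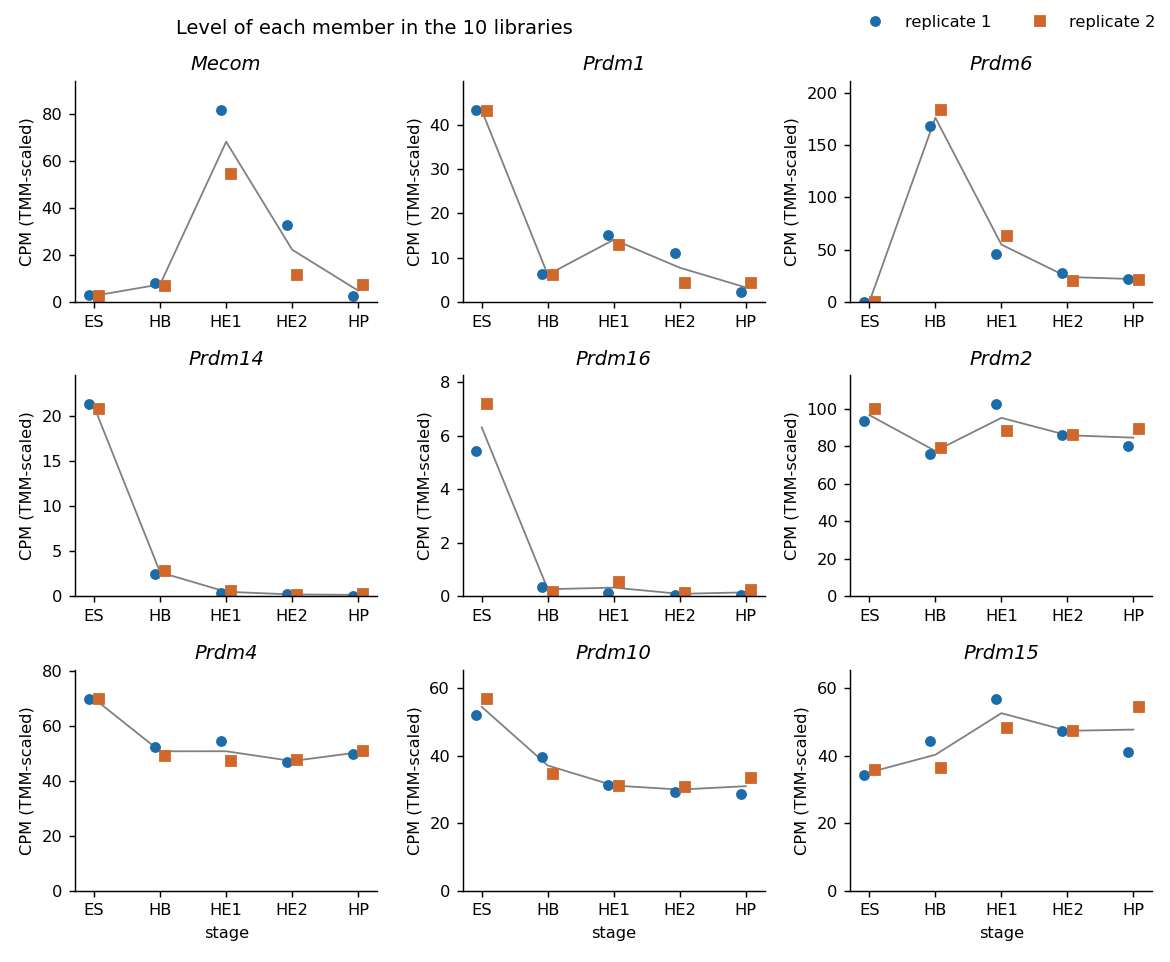
Level of each member (CPM, TMM-scaled, vertical axis from 0, scales differ) at each stage. Points are the 2 libraries of a stage and the line joins the stage means. Mecom is highest in HE1, Prdm6 in HB, and Prdm1, Prdm14 and Prdm16 in ES, while the last 4 panels stay within 1.82-fold.

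Mecom had its highest level in HE1. Its level was 2.86 and 2.38 CPM in the ES libraries, 8.10 and 6.82 CPM in the HB libraries. The HE1 libraries were at 81.6 and 54.5 CPM, those of HE2 at 32.8 and 11.5 CPM and those of HP at 2.58 and 7.03 CPM. Both HE1 libraries were above all others, both HE2 libraries came next, and the libraries of HB and HP, and of HP and ES, overlapped. From ES to HB it rose by 1.50 ± 0.52 on the log2 scale (SE; adjusted p = 0.0412, edgeR), and from HB to HE1 by 3.19 ± 0.53 (adjusted p = 0.00145). The first of these calls was lost when any of the 4 ES and HB libraries was left out, with an adjusted p of 0.0859 to 0.143, and with limma-voom (1.48, adjusted p = 0.113).
The change from HE1 to HE2 was -1.62 ± 0.49 with an adjusted p of 0.0536, and that from HE2 to HP was -2.22 ± 0.52 with an adjusted p of 0.152. Neither passed the test. The change from HE1 to HE2 was -2.55 without HE2 replicate 1 (adjusted p = 0.00856, called) and -1.04 without HE2 replicate 2 (adjusted p = 0.329). It was about -1.60 and called without either HP library (adjusted p = 0.0397 and 0.039), and it was also called by limma-voom (adjusted p = 0.0204) and DESeq2 (adjusted p = 0.00637). The change from HE2 to HP was -1.28 without HE2 replicate 1 and -2.79 without HE2 replicate 2. It was -1.66 without HP replicate 1 and -3.10 without HP replicate 2. With all libraries, DESeq2 called it (adjusted p = 0.000799). Over both steps, Mecom fell by 3.84 ± 0.54 from HE1 to HP (adjusted p = 0.00102). This call was kept in every fit that left out a library, with values between -4.70 and -3.26.

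Prdm1 was highest in ES and had a second, lower level in HE1. The ES libraries were at 43.4 and 43.2 CPM and the HB libraries at 6.28 and 6.03 CPM. The HE1 libraries reached 15.2 and 12.9 CPM, those of HE2 were at 11.2 and 4.32 CPM, and those of HP at 2.24 and 4.32 CPM. Both HE1 libraries lay above both HB libraries, whereas the HE2 and HB libraries overlapped. Prdm1 fell by 2.81 ± 0.41 on the log2 scale from ES to HB (adjusted p = 0.000379), rose by 1.19 ± 0.40 from HB to HE1 (adjusted p = 0.0419) and fell by 2.11 ± 0.41 from HE1 to HP (adjusted p = 0.00503).
The rise from HB to HE1 was lost when any of the ES, HB or HE1 libraries was left out (adjusted p of 0.0637 to 0.187), and the adjusted p was 0.0554 with library sizes not scaled by TMM. The fall from HE1 to HP was lost without HP replicate 1, where it was -1.68 (adjusted p = 0.0541). The change from HE1 to HE2 was -0.86 ± 0.39 (adjusted p = 0.145) and that from HE2 to HP was -1.25 ± 0.41 (adjusted p = 0.342), and neither was called. Without HE2 replicate 1 they were -1.68 (adjusted p = 0.0111, called) and -0.41 (adjusted p = 0.918), and without HE2 replicate 2 they were -0.32 (adjusted p = 0.64) and -1.78 (adjusted p = 0.0201, called).

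Mecom and Prdm1 also differed between the 2 libraries of HE1, of HE2 and of HP, in the same direction as each other and as some endothelial genes. In HE1, where both were higher in replicate 1, the 4 endothelial markers summed to 2824 and 1645 CPM in replicates 1 and 2. In HE2, Mecom was 2.87-fold and Prdm1 2.58-fold higher in replicate 1, which had 862 CPM of Cdh5 (VE-cadherin) against 412 CPM in replicate 2. Sox17, a regulator of arterial and hemogenic endothelium that is not among the 4 markers, was at 31.0 and 8.38 CPM in the same libraries. In HP, Mecom was 2.73-fold and Prdm1 1.93-fold higher in replicate 2, where Cdh5 was at 179 CPM against 118 CPM and Sox17 at 7.88 against 1.85 CPM. Erg went the other way in both stages, with 83.5 and 93.0 CPM in HE2 replicates 1 and 2 and 53.8 and 33.2 CPM in HP. Pecam1 was at 483 and 340 CPM in the HE2 libraries but at 239 and 217 CPM in those of HP. Tek was at 285 and 159 CPM in the HE2 libraries and at 61.5 and 64.2 CPM in those of HP, where the 4 endothelial markers summed to 472 and 494 CPM. The 5 blood markers summed to 796 and 1002 CPM in HE2 replicates 1 and 2, and to 960 and 787 CPM in HP. The part of these markers in the levels of Mecom and Prdm1 was not tested.

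**Figure D2:**
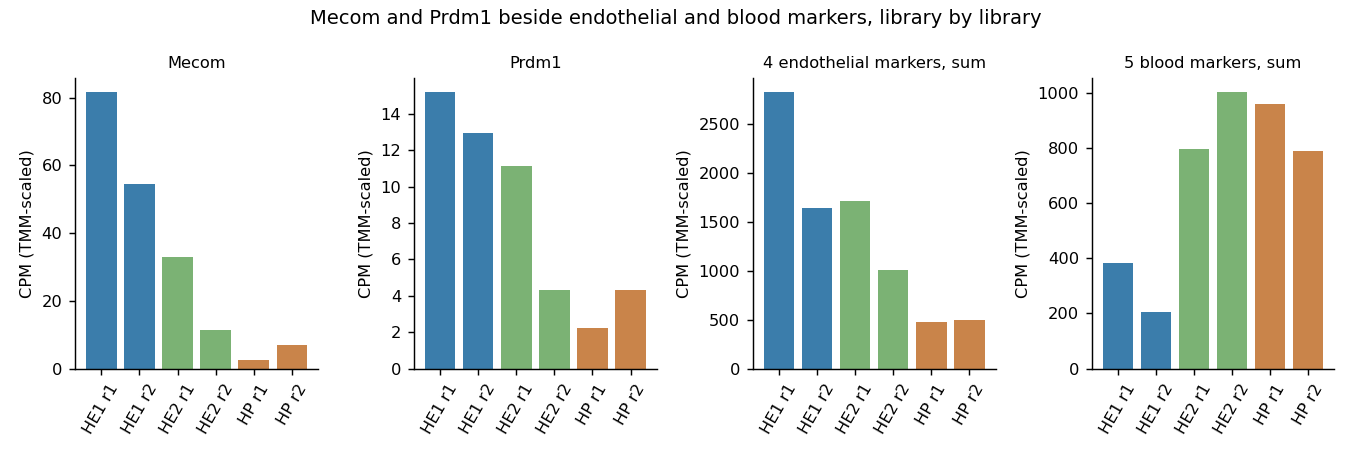
Levels (CPM, TMM-scaled, bars from 0) of Mecom, of Prdm1, of the sum of 4 endothelial markers (Cdh5, Pecam1, Tek, Erg) and of the sum of 5 blood markers (Itga2b, Spi1, Ptprc, Gata1, Kit) in each HE1, HE2 and HP library (r = replicate). Within HE2, replicate 1 has the higher bar for Mecom, Prdm1 and the endothelial sum and the lower bar for the blood sum. Tek, Itga2b and Kit encode proteins used in the sort.

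Prdm6 was all but absent in ES and had its highest level in HB. It gave 6 counts and 1 count in the ES libraries, 0.11 and 0.029 CPM, and was at 169 and 184 CPM in HB. It was then at 46.3 and 63.4 CPM in the HE1 libraries, at 27.9 and 19.8 CPM in those of HE2 and at 22.3 and 21.5 CPM in those of HP. The HE2 and HP libraries overlapped, and no libraries of other stages did. The ratio of the HB to the ES mean was 2610, with an exact 95% Poisson interval of 1267 to 6491 from the 7 counts in ES, which covers counting error only. Prdm6 rose by 11.1 ± 0.38 on the log2 scale from ES to HB (adjusted p = 1.26e-07), and by 10.7 to 12.4 when a library was left out. It fell by 1.68 ± 0.22 from HB to HE1 (adjusted p = 0.000358). It fell by a further 1.20 ± 0.22 from HE1 to HE2 (adjusted p = 0.0109), which was -0.96 and not called without HE1 replicate 2 (adjusted p = 0.0588) or without HE2 replicate 2 (adjusted p = 0.0796). The fall of 1.33 ± 0.22 from HE1 to HP was called (adjusted p = 0.0021).
The markers of smooth muscle, the tissue in which PRDM6 is best known, took another course from HB to HE1. Acta2 and Tagln summed to 13.9 and 9.10 CPM in HB, where Prdm6 was highest, and to 614 and 919 CPM in HE1. Within HE1, HE2 and HP, the library with more Prdm6 had the higher sum, with 640 against 399 CPM in HE2 and 748 against 357 CPM in HP. Within ES and HB it was the library with less Prdm6. The part of these markers in the level of Prdm6 was not tested.

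Prdm14 and Prdm16 were ES genes in these libraries. Prdm14 was at 21.3 and 20.7 CPM in the ES libraries and at 2.48 and 2.85 CPM in those of HB. The HE1 libraries held 0.42 and 0.59 CPM, those of HE2 0.30 and 0.13 CPM, and those of HP 0.068 and 0.25 CPM. Each stage up to HE2 lay below the one before it in both libraries, and HE2 and HP overlapped. It fell by 2.98 ± 0.41 on the log2 scale from ES to HB (adjusted p = 0.000245) and by 2.37 ± 0.45 from HB to HE1 (adjusted p = 0.00335). After HE1 it was counted 3 to 10 times per library, and neither the change from HE1 to HE2 (-1.23 ± 0.56, adjusted p = 0.144) nor that from HE1 to HP (-1.74 ± 0.58, adjusted p = 0.0502) was called. The latter was called by DESeq2 (adjusted p = 0.0174), and was -0.98 without HP replicate 1 (adjusted p = 0.317) and -2.82 without HP replicate 2 (adjusted p = 0.0207). It was also called without HE1 replicate 1, HE2 replicate 1 or HE2 replicate 2 (adjusted p = 0.0462, 0.0392 and 0.0395).
Prdm16 was at 5.45 and 7.17 CPM in ES and fell by 4.57 ± 0.75 from ES to HB (adjusted p = 0.000779). It gave 11 and 6 counts in the HB libraries, 3 and 16 in those of HE1, 2 and 4 in those of HE2, and 2 and 8 in those of HP. From HB onwards the neighbouring stages overlapped, and none of the later changes was called. Of its 19 counts in HE1, 16 came from replicate 2, the library with the higher level of ES markers. Prdm14 was counted 10 and 18 times in the same libraries. Pou5f1, which encodes OCT4, was at 549 and 520 CPM in ES and at 2.82 and 26.3 CPM in HE1 replicates 1 and 2. The part of these markers in the counts of Prdm14 and Prdm16 was not tested. Mecom and Prdm16, whose starts share the sequence printed above, thus had their highest stage means in HE1 and in ES.

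Prdm2, Prdm4, Prdm10 and Prdm15 were detected at a steady level in every library. Prdm2, which encodes the RIZ methyltransferase, ranged between 75.7 CPM in an HB library and 102 CPM in an HE1 library, and no difference over the stages passed the test (adjusted p = 0.22). Prdm4, whose product recruits the arginine methyltransferase PRMT5, was at 69.9 CPM in both ES libraries and at 46.9 to 54.4 CPM in the other 8. Prdm10 was at 52.0 and 56.8 CPM in ES and at 28.5 to 39.6 CPM in the others. For both genes all ES libraries lay above all later ones, and the stages differed by the test over all stages (adjusted p = 0.0153 and 0.00154) but by less than the 2-fold required for a call. Prdm15, which is known from naive pluripotency, was lowest in ES at 34.3 and 35.7 CPM and reached 56.8 and 48.3 CPM in HE1 (adjusted p = 0.0692). From ES to HB, the fitted changes were -0.32 ± 0.13 for Prdm2, -0.46 ± 0.13 for Prdm4, -0.55 ± 0.15 for Prdm10 and 0.20 ± 0.17 for Prdm15.

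**Figure D3:**
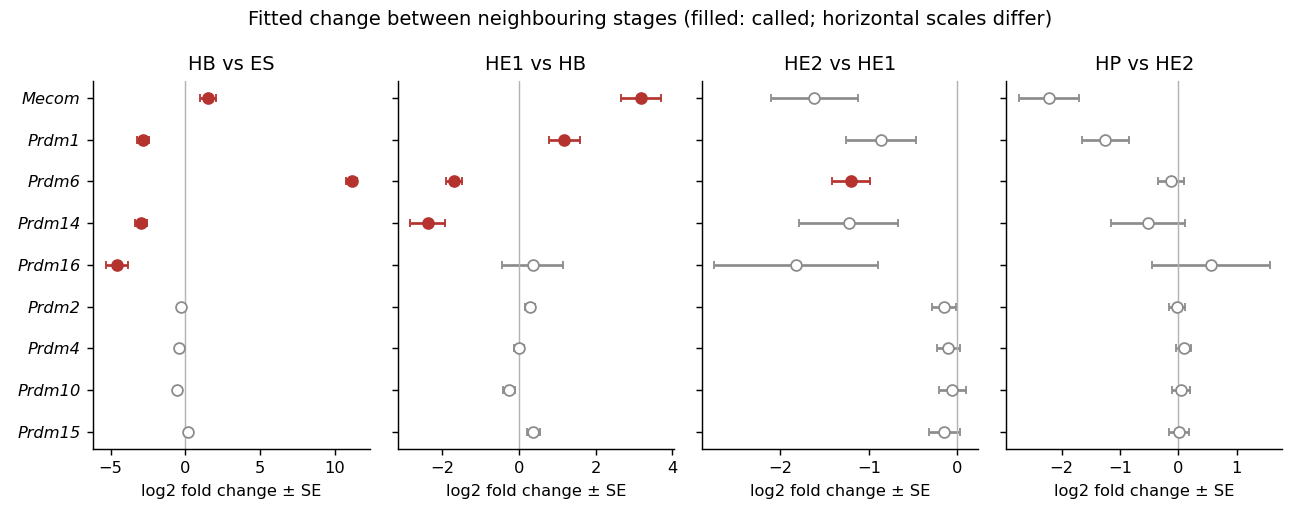
Fitted log2 fold change (horizontal axis, later over earlier stage, scales differ between panels) of the 9 members between neighbouring stages, with bars for the SE. Filled points were called at an adjusted p under 0.05 and at least 2-fold: 5 of 9 members from ES to HB, 4 from HB to HE1, 1 from HE1 to HE2 and 0 from HE2 to HP.

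By comparison, Mecom and Prdm6 rose and Prdm1, Prdm14 and Prdm16 fell from ES to HB, where 11.5% of all tested genes were called higher and 17.3% lower in HB. From HB to HE1, Mecom and Prdm1 rose and Prdm6 and Prdm14 fell (12.7% of all genes higher and 8.19% lower in HE1). Over all genes the 2872 called higher in HE1 were 1857 without HB replicate 1 and 1469 without HB replicate 2. Prdm6 alone was called from HE1 to HE2, as lower (5.39% of all genes lower and 3.26% higher in HE2). The calls over all genes in this step, 737 higher and 1217 lower, rested on single libraries: they were 324 higher and 98 lower without HE2 replicate 2, 368 and 260 without HE1 replicate 2, 1368 and 2927 without HE1 replicate 1, and 1089 and 2118 without HE2 replicate 1. From HE1 to HP, 3 members were called and all fell, Mecom, Prdm1 and Prdm6 (11.2% of all genes lower and 5.35% higher in HP). The 2525 genes called lower in HP were 1135 without HP replicate 1 and 1618 without HE1 replicate 2, and the 1210 called higher were 770 without HP replicate 1. The median log2 change of the 9 members was -0.46 from ES to HB, 0.30 from HB to HE1, -0.86 from HE1 to HE2, -0.022 from HE2 to HP and -1.26 from HE1 to HP. Over all tested genes it was 0, 0.035, -0.075, 0.012 and -0.024 in the same order. Each median of the 9 is the value of a single member and does not describe the family as a whole. From HE1 to HE2 it was that of Prdm1, and from HE1 to HP that of Prdm16 (-1.26 ± 0.86, adjusted p = 0.303, edgeR). Neither change was called, and from HE1 to HP those of Prdm2, Prdm4, Prdm10 and Prdm15 lay between -0.17 and -0.0097. No member was called from HE2 to HP by edgeR, where 0% of all genes were called in either direction. At an unadjusted p under 0.05, 2 members and 1783 genes passed in that comparison, and limma-voom called 0 members and DESeq2 called 1. These comparisons share libraries with their neighbours and are not independent.

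Compared per length of exon, Prdm6 dominated the family in HB and hardly any RNA of it was present in ES. The summed level of the 9 members was 53.1 ± 0.96 CPM per kb in ES and rose to 81.8 ± 2.1 in HB (SD, n = 2 each). It was 55.2 ± 1.2 for HE1, 38.7 ± 3.6 for HE2 and 36.6 ± 2.6 for HP. Prdm6 made up a mean of 61.9% of this sum in HB and 28.7% in HE1. In ES the largest shares were those of Prdm4 with 26.8%, Prdm2 with 24.5%, Prdm14 with 15.4% and Prdm1 with 14.6%. Mecom reached 9.89% in HE1 and was between 0.40% and 4.48% in the other stages. In HP, Prdm2 and Prdm4 together with Prdm6 led, with 31.2%, 28.1% and 17.3%.

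**Figure D4:**
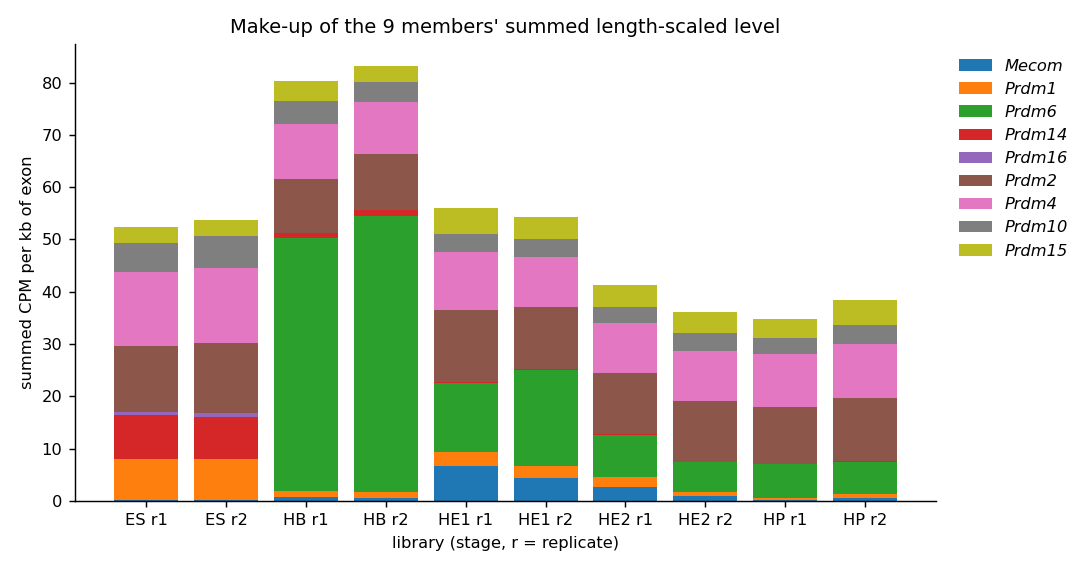
Summed level of the 9 members in each library (CPM per kb of exon, stacked bars from 0, r = replicate). The block of Prdm6 makes up a mean of 61.9% of the bars in HB, and the blocks of Prdm1 and Prdm14 are visible in ES.

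The members lie on chromosomes 3 (Mecom, 29951296 to 30548008), 10 (Prdm1 and Prdm4), 4 (Prdm2 and Prdm16), 18 (Prdm6), 9 (Prdm10), 1 (Prdm14) and 16 (Prdm15) of GRCm38, and values cover the exons of each gene. The genes with the stage profile most like that of each varying member were taken by Pearson's r over the 5 stage means of log2 CPM, among 8884 genes that were called over the stages and had a mean of at least 1 CPM. With 5 points, r is high for many genes, and it is given as a description. For Mecom these were Colgalt2, Gatm and Bmp6 (r = 0.999, 0.994 and 0.993), and 6 genes reached an r of 0.99. For Prdm1 they were Ak1 and Paqr8 among others, with 7 genes at that r, and for Prdm6 they were Stxbp4, Siah2 and Prox1, with 24. Prdm14 was most like Adad2, Large2 and Ceacam1, and Prdm16 most like Gm12100, Tfcp2l1 and Gm13147, and 114 and 159 genes reached an r of 0.99 with them.

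Among other genes of the family, Prdm12 and Prdm13 did not pass the filter on low counts. Prdm11 rose from HB to HE1, by 1.65 ± 0.18 on the log2 scale (adjusted p = 0.000126). It was at 12.1 and 11.4 CPM in HB, 41.8 and 32.3 CPM in HE1 and 28.7 to 42.0 CPM in HE2 and HP, and it was not called in any comparison after HE1, including that of HP with HE1 (-0.25 ± 0.17), where Mecom fell. Prdm8 fell by 2.61 ± 0.84 from HE1 to HP (adjusted p = 0.0443), at no more than 29 counts in any library. This call was lost with DESeq2 (adjusted p = 0.0611). With edgeR it was lost with replicate number as a block (adjusted p = 0.0759) and with library sizes not scaled by TMM (adjusted p = 0.0556). The same held for a fit of only the HE1 and HP libraries (adjusted p = 0.0616). It was also lost without any of the ES, HB and HE1 libraries and without HP replicate 1 (-1.76). Prdm8, Prdm9 and Zfp408 were not called over all stages.

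Of 14 cofactors and histone modifying enzymes that work with the family, from ES to HB 1 rose and 3 fell, a share near that of all tested genes (11.5% higher and 17.3% lower). The largest change was that of Suv39h1, an H3K9 methyltransferase, which rose by 1.90 ± 0.13 on the log2 scale (adjusted p = 3.01e-06), while Ctbp2, a corepressor bound by MECOM and PRDM16, fell by 1.79 ± 0.13 (adjusted p = 4.63e-06). Eed, a subunit of PRC2, fell by 1.32 ± 0.14 and Cbfa2t2, a partner of PRDM14, by 1.04 ± 0.14 (-0.96 and not called with library sizes not scaled by TMM). The median change of the list from ES to HB was -0.10, against 0 over all genes.

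Germ cell and pluripotency genes linked to PRDM14 and PRDM1 fell from ES to HB in 9 of 14 cases, with a median log2 change of -3.03 (17.3% of all tested genes fell). Nanog, Pou5f1 and Esrrb of this list were also among the ES markers used to check the stages. A link of these falls to PRDM14 or PRDM1 was not tested. On the log2 scale, Dnmt3l fell by 6.07, Esrrb fell by 5.82, Dppa3 fell by 5.45 and Nanog fell by 4.18. From HE1 to HP, 11 of the 14 fell and 1 rose (11.2% of all tested genes fell and 5.35% rose), but 4 fell without HE1 replicate 2, the library with the higher level of ES markers. Nanog was at 0.72 and 11.6 CPM in HE1 replicates 1 and 2, and Esrrb at 1.09 and 8.65 CPM. Without HP replicate 1 the number that fell was 4 and without HP replicate 2 it was 5. Of 10 genes known as targets or partners of EVI1 and PRDM16, 8 were tested (all but Ucp1 and Ppargc1a, which gave at most 11 counts in a library) and 6 rose from ES to HB (11.5% of all tested genes rose). Sox17 rose by 5.84 ± 0.85, Runx1 by 4.83 ± 0.29 and Gata2 by 4.13 ± 0.29. Fos was also among them. In the step from HB to HE1, where Mecom rose, Sox17 rose by 2.68 ± 0.63 and Fos fell by 2.00 ± 0.31 (12.7% of all tested genes rose and 8.19% fell). The call of Sox17 was lost without either HB library. The other tested genes of the list were not called, among them Gata2 (-0.0054 ± 0.25) and Runx1 (-0.51 ± 0.24). The median there was -0.26. From HE1 to HP, Sox17 fell by 4.18 ± 0.68, as Mecom did, while Runx1 and Spi1 rose by 3.07 ± 0.26 and 4.99 ± 0.48. Of 8 genes known as targets or opponents of BLIMP1, 7 were tested (all but Irf4). From ES to HB, where Prdm1 fell, 3 of them rose, among them Id3 by 2.47 ± 0.32 and Bcl6 by 2.37 ± 0.39, and 2 fell (11.5% of all tested genes rose and 17.3% fell). Those that fell had few counts, Pax5 with 33 and 16 in the ES libraries and 1 in each HB library, and Ciita with 51 and 26 in the ES libraries and 3 in each HB library. Both calls were lost without ES replicate 1 (adjusted p = 0.0815 and 0.0653) or HB replicate 2 (adjusted p = 0.0665 and 0.0557), and that of Pax5 also without HB replicate 1 (adjusted p = 0.0532). From HB to HE1, where Prdm1 rose, Myc fell by 1.67 ± 0.25, Bcl6 fell by 2.06 ± 0.39 and Xbp1 rose by 1.50 ± 0.18 (8.19% of all tested genes fell and 12.7% rose). Ciita was called as lower, with 3 counts in each HB library and 0 in both HE1 libraries, and this call was lost with DESeq2 (adjusted p = 0.0994) and in every fit without a library (adjusted p of 0.0531 to 0.143). In the step from HE1 to HP, where Prdm1 fell again, 1 of the 7 rose and 1 fell (5.35% of all tested genes rose and 11.2% fell). Id3 fell by 2.81 ± 0.33, whereas it had risen from ES to HB. Ciita was called higher at 8 and 3 counts in the HP libraries, a call lost with DESeq2 (adjusted p = 0.0523). Myc, Bcl6 and Xbp1 were not called in this step. The medians of these lists from ES to HB were 3.44 and -0.30, against 0 over all genes.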

How the data were processed

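Nuclear RNA-seq counts of 10 libraries, 2 per stage, were used. Per the labels and file headers, the authors used HISAT2 (v2.2.1) for alignment to mm10, and they deposited raw counts of fragments per Ensembl gene (release 102) made with featureCounts (v2.0.1) in reverse-stranded mode, with no normalization. The authors also deposited a matrix with 1 expression score per stage, which was used to find the members and as an alternative level.

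The test was that of edgeR (v4.0.16, run under R v4.3.3), with filterByExpr (22596 of 55487 genes left), TMM scaling and a quasi-likelihood fit of stage to all 10 libraries (5 residual degrees of freedom). Adjusted p-values are Benjamini-Hochberg values over all tested genes, and calls needed an adjusted p under 0.05 and at least 2-fold. The fit was tested on simulated data. Log2 CPM used a prior count of 2. The fit was repeated with limma-voom (v3.58.1), DESeq2 (v1.42.0) and other settings. All members were named; from each gene list at most the 4 called genes with the largest change were named, and for each varying member the 3 genes with the most similar profile, except items that are not reported here. The members and lists were chosen with earlier results of these data known. Exons of Mecom, Prdm10 and Prdm16 overlap antisense genes by at most 129 bases, and the counting used strand. Sequences came from RefSeq tables, and no genome or protein sequence was used.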

Additional observations from a re-analysis of the deposited data

How the results depend on the processing

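The same 5 members were called over all stages under every alternative tried. From ES to HB and from HE1 to HP the number of members called stayed within 1.5 times its value under all alternatives. From HB to HE1 it was 2 in place of 4 when at least 4-fold was required. From HE1 to HE2, where 1 member was called, 2 were called with limma-voom, DESeq2, no filter on low counts or only the genes of the deposited matrix, 0 at 4-fold, and between 0 and 3 when a library was left out. From HE2 to HP, where 0 were called, DESeq2 called 1, no filter gave 2, and leaving out a library gave between 0 and 2. Calls over all genes in that last step were 62 with limma-voom, 301 with DESeq2 and 534 without the filter, and they were 525 without HE2 replicate 2 (50 higher and 475 lower), 67 without HE1 replicate 1, 59 without HE1 replicate 2 and 0 without any other library. The change of Prdm16 from HE1 to HP ranged between -2.78 and 0.13 when a library was left out, and turned positive without HE1 replicate 2. The cause of these differences was not tested. Of the 45 pairs of a member and a comparison, 24 were refitted under each alternative, those from ES to HB and those with a log2 change of at least 1 or an adjusted p under 0.05. Of their 406 refitted changes, 370 kept their direction and call, 16 lost the call, 19 gained it and 1 changed direction. Over all 45 pairs, 13 changed direction in some fit without a library, and 0 of these were called.

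The differences between the 2 replicates of a stage were weakly correlated between stages, at -0.32 to 0.21. Such correlations cannot show whether libraries of the same number share a culture. The labels do not name the cultures, so whether the numbers pair the samples is not known. With a replicate block, 5 members were called from ES to HB, 3 from HB to HE1, 1 from HE1 to HE2, 0 from HE2 to HP and 3 from HE1 to HP, and Prdm1 from HB to HE1 was the call lost (1.19, adjusted p = 0.0529). None of the 3 most similar profiles of a member was kept with Spearman's rho over the 10 libraries. With 2 libraries per stage, and 2 to 10 counts of Prdm14 and Prdm16 per library in HE2 and HP, changes of these genes after HE1 rest on few counts.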
